A study of Homo sapiens with 3 samples.

Results

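The RIG-I-like receptors and the adaptors through which they and TLR3 signal, together with FADD and RIPK1, were followed as 10 genes: DDX58, IFIH1, DHX58, MAVS, IRF3, IRF7, TLR3, TICAM1, RIPK1 and FADD. They were taken by symbol, as parts of a pathway that DDX24 is known to restrain, out of 58735 genes counted in A549 cells, and each symbol matched 1 gene. A549 is a human lung adenocarcinoma cell line, and RNA was sequenced from 1 library of control cells (Control-sh) and 1 library of cells with each of 2 shRNAs against the helicase DDX24 (DDX24-sh1 and DDX24-sh2). All 3 libraries came from cells grown under the same conditions in F12K medium with serum, and the study's methods describe stable lentiviral lines selected with puromycin, so the control cells carry a vector and saw the drug as well. The methods name an empty vector as the control while a figure legend names a control shRNA, and which of them this library holds is not known. Beyond the lentiviral vectors and their shRNAs, the labels and methods name no infection, added RNA ligand or interferon for these libraries.

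RIG-I, the product of DDX58, and MDA5, the product of IFIH1, are helicases that bind viral double-stranded RNA in the cytosol and then assemble MAVS, an adaptor on the mitochondrial outer membrane. LGP2, the product of DHX58, lacks the signalling domains of the other RIG-I-like receptors and modulates them, and TLR3 reads double-stranded RNA inside endosomes and signals through TRIF, the product of TICAM1. Both routes lead to kinases that activate the transcription factors IRF3 and IRF7, which switch on interferon genes, and RIPK1 and FADD are death-domain proteins that join these routes to NF-kB and to caspases. DDX24 is known to bind RNA, FADD and RIPK1, and to hold back IRF7 activation. DDX58, IFIH1, DHX58 and IRF7 are themselves interferon-stimulated genes.

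Counts summed to between 17218884 and 18337471 per library. Mitochondrial genes held 4.36% of counts for the control, 5.13% for DDX24-sh1 and 7.04% for DDX24-sh2, and the part of this share in the ratios was not tested. DDX24 itself stood at 29.6% of the control level in DDX24-sh1 and 36.0% in DDX24-sh2. Each condition had 1 library, so there is no replicate, and neither a test nor a p-value is given. A level in CPM is a gene's count per 1000000 counts of its library, after TMM scaling of the library sizes, and 1 CPM equalled between 17.1 and 18.3 counts. A ratio is the log2 of the shRNA level over the Control-sh level, with a prior count of 2 added so that low counts give damped ratios, and 0 means no difference. The interval given with a ratio is the exact 95% interval from the 2 counts. It covers counting error only and not the variation between cultures. Both ratios of a gene use the same Control-sh library, so what depletion of DDX24 does and what set that 1 culture apart cannot be told apart. The deposited FPKM values carry the 2 shRNA labels exchanged relative to the counts, and DDX24-sh1 and DDX24-sh2 are the libraries whose counts bear those names. Of the cell type markers, the keratins KRT8 and KRT18 were high in all 3 libraries, EPCAM stood at between 1.59 and 1.87 CPM, KRT19 went from 58.6 CPM in the control to 123 and 151 CPM in the knockdowns and CDH1 from 31.5 to 19.6 and 14.5 CPM. Among markers of other kinds, the lung factor NKX2-1, the leukocyte marker PTPRC and the T cell marker CD3E were at 0. The 4 leukocyte markers looked at, PTPRC and CD3E included, summed to between 8.37 and 10.5 CPM through CD14 and ITGAX. Of the fibroblast markers, COL1A1 stood at between 7.92 and 9.51 CPM and PDGFRB at between 0.499 and 1.23 CPM.

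The stretches around the members' RefSeq start sites are shown first, since the levels of several of these genes are known to be set there by interferon and NF-kB. RefSeq promoter windows on GRCh38.p14, running from 250 bases before to 50 bases after a start site, were at hand for 7 of the 10 members, the exceptions being IRF3, IRF7 and DHX58. They were searched on both strands for an interferon-response type motif (GAAA, any 2 bases, GAAA) and an NF-kB type motif (GGGA, any base, TTTCC), with letters chosen when the members' promoters were in view. The NF-kB type letters were found for 3 of the 7 members, DDX58 and TICAM1 among them and not all of them distinguishable from the control in level, against 0.678% of 27305 genes with a window. The interferon-response type letters were found for IFIH1, TLR3 and RIPK1, also 3 of the 7, against 4.38% of those genes. MAVS and FADD held neither. Because the letters were chosen with these promoters in view, the shares over all genes are no test of enrichment among the members. A match describes letters in a window and not a bound site. The matches are shown in capitals on the gene's own strand, and the stretch of TICAM1 is given in full because TICAM1 was the member with the lowest ratios. Its motif begins 120 bases before the start at chr19:4831823-4831832 within chr19:4831713-4831962 (minus strand), upstream of every annotated transcript.
TICAM1: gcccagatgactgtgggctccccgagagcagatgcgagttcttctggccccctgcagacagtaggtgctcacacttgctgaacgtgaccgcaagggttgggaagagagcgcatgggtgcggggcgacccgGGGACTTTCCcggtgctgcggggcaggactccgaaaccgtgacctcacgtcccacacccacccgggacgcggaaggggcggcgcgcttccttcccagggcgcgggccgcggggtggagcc

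The NF-kB type match of DDX58, the member with the highest ratio, began 76 bases before the RefSeq start and is shown within chr9:32526253-32526282 (minus strand). IFIH1 held 3 interferon-response type matches, of which the one nearest the start, 21 bases before it within chr2:162318686-162318715 (minus strand), is shown. The TLR3 match begins 4 bases before the start and runs across it, within chr4:186069142-186069171 (plus strand). The RIPK1 match begins 67 bases before the second of its 3 RefSeq starts, within chr6:3068301-3068330 (plus strand). Unlike the TICAM1 match, those of DDX58, TLR3 and RIPK1 lie inside the gene as annotated for the counts. These genes begin, on their own strands, at chr9:32526324, chr4:186069152 and chr6:3063991. The IFIH1 match shown runs across the beginning of its annotated gene at chr2:162318703.
DDX58, NF-kB type: tcatttcctcGGAAAATCCCtgctttcccc
IFIH1, interferon-response type: gaagagaatcGAAACAGAAAccaaagtcag
TLR3, interferon-response type: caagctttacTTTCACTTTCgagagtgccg
RIPK1, interferon-response type: cgcgcggaggTTTCGGTTTCctcttttacg

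Among the cytosolic sensors, DDX58 was higher in both shRNA libraries while IFIH1 was not distinguishable from the control and DHX58 was hardly counted. DDX58 (ENSG00000107201, GRCh38 chr9:32455705-32526324, minus strand) had 318 counts in Control-sh against 663 for DDX24-sh1 and 561 for DDX24-sh2. Its level was thus 18.6 CPM in the control and 36.2 and 31.1 CPM in the shRNA libraries, both above the control. The ratio was 0.96 (interval 0.77 to 1.16) in DDX24-sh1, a 1.94-fold higher level, and 0.73 (interval 0.54 to 0.94) in DDX24-sh2, a 1.66-fold higher level. In a pool of cells such as these libraries, more RNA in every cell and a larger share of expressing cells cannot be told apart. Set directly against each other, DDX24-sh2 was below DDX24-sh1 by a log2 ratio of -0.22 (interval -0.39 to -0.06), so the size of the DDX58 difference was not the same in the 2 knockdowns beyond counting error. The library with the lower DDX24 level, DDX24-sh1, was the one with the higher DDX58 level, an order of 2 libraries that was not tested.

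IFIH1 (ENSG00000115267, chr2:162267079-162318703, minus strand) had 66 counts in Control-sh against 61 for DDX24-sh1 and 56 for DDX24-sh2. Its ratios of -0.21 (interval -0.74 to 0.31) and -0.31 (interval -0.86 to 0.22) had intervals that held 0. At this depth a 1.5-fold lower level, a log2 ratio of -0.58, lay within both intervals. A 1.5-fold higher level lay outside both. DDX58 and IFIH1, which share domain structure and an adaptor and are both interferon-stimulated genes, therefore lay apart. Per length of exon, DDX58 exceeded IFIH1 by 5.65-fold (interval 4.33 to 7.49) in Control-sh, 12.8-fold (interval 9.80 to 16.9) in DDX24-sh1 and 11.8-fold (interval 8.92 to 15.8) in DDX24-sh2. Both shRNA intervals lay above the control interval. Length here and below means all annotated exon bases of a gene, 5108 for IFIH1, where its longest coding transcript has 3595 nt. The intervals hold no error in length, and another length would shift a quotient alike in every library.

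DHX58 (ENSG00000108771, chr17:42101404-42112733, minus strand) had 5 counts in Control-sh against 6 for DDX24-sh1 and 5 for DDX24-sh2. It was the 1 member below a mean of 1 CPM. Its intervals, -1.81 to 2.21 and -2.20 to 2.04, spanned more than a 2-fold difference in either direction, so no difference was detectable at this depth. TLR3 (ENSG00000164342, chr4:186069152-186088069, plus strand), the endosomal sensor, had 18 counts in Control-sh and 27 in each shRNA library. Its level was 1.05 CPM in the control and 1.48 and 1.496 CPM in the shRNA libraries, just above the limit of 1 CPM. Its ratios, 0.44 (interval -0.43 to 1.43) and 0.46 (interval -0.41 to 1.45), lay close together, but both intervals held 0. The TLR3 transcript also shares nearly identical stretches of up to 224 nt with transcripts of 7 other genes, and how such reads were assigned is not given in the sources used here.

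**Figure D1:**
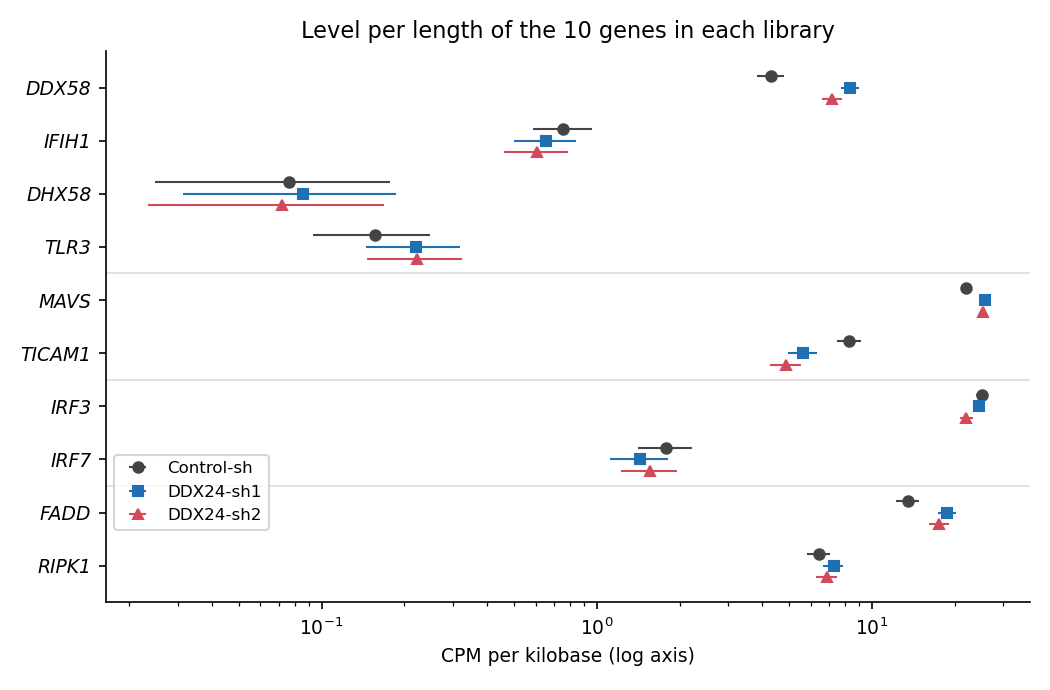
Level of the 10 genes in each library, in CPM per kb of exon on a log axis, with 1 point for each of Control-sh, DDX24-sh1 and DDX24-sh2 and no error between cultures. DDX58 stood at 4.28 in Control-sh against 8.33 and 7.14 in the shRNA libraries, TICAM1 at 8.25 against 5.598 and 4.87, and DHX58 below 0.1 in all 3.

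The adaptors of the 2 sensing routes differed from the control in opposite directions. TICAM1 (ENSG00000127666, chr19:4815932-4831704, minus strand), the adaptor of TLR3, had 377 counts in Control-sh against 274 for DDX24-sh1 and 235 for DDX24-sh2, so both knockdowns were below the control. The ratio was -0.56 (interval -0.79 to -0.33) for DDX24-sh1 and -0.76 (interval -1.004 to -0.52) for DDX24-sh2, a level of 68.0% and 59.1% of the control. The shRNA libraries could not be distinguished from each other, with an interval of -0.46 to 0.05 for DDX24-sh2 against DDX24-sh1. TICAM1 shared no exon bases with another gene and had no near-identical copy among annotated transcripts.

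MAVS (ENSG00000088888, chr20:3846799-3876123, plus strand), the adaptor of the RIG-I-like receptors and the member with the most counts, had 4401 counts in Control-sh against 5521 for DDX24-sh1 and 5387 for DDX24-sh2. Its ratios, 0.23 (interval 0.17 to 0.28) and 0.21 (interval 0.15 to 0.27), were small but beyond counting error, at 1.17-fold and 1.16-fold. The 2 knockdowns were indistinguishable at the highest precision of the set, with an interval of -0.07 to 0.04. The MAVS transcript carries a long end after its coding part, and it shares nearly identical stretches of up to 324 nt with transcripts of 310 other genes, so a part of its count depends on how repeated reads were treated. Per length, MAVS exceeded TICAM1 by 2.65-fold (interval 2.39 to 2.96) in Control-sh. The same quotient was 4.58 (interval 4.06 to 5.19) for DDX24-sh1 and 5.21 (interval 4.57 to 5.96) for DDX24-sh2, both above the control interval. The quotient of MAVS over its sensor DDX58 went the other way, from 5.12 (interval 4.57 to 5.75) in the control to 3.08 (interval 2.84 to 3.34) and 3.55 (interval 3.25 to 3.88).

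The transcription factors at the end of the pathway lay close to the control. IRF3 (ENSG00000126456, chr19:49659569-49665875, minus strand), which is present before infection and is activated by phosphorylation, had 1621 counts in Control-sh against 1691 for DDX24-sh1 and 1509 for DDX24-sh2. Its ratio of -0.04 (interval -0.14 to 0.06) in DDX24-sh1 held 0. In DDX24-sh2 the ratio of -0.18 (interval -0.29 to -0.08) did not, and DDX24-sh2 was also below DDX24-sh1 by a log2 ratio of -0.14 (interval -0.25 to -0.04). Of the exon bases of IRF3, 734 or 19.3% are shared with BCL2L12 on the opposite strand at chr19:49665142-49665875. BCL2L12 had 699 counts in Control-sh against 445 for DDX24-sh1 and 435 for DDX24-sh2. Whether counting used strand is not given in the sources used here, and the part of these reads in the IRF3 values was not tested.

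IRF7 (ENSG00000185507, chr11:612553-615999, minus strand), the factor whose activation DDX24 is known to hold back, had 80 counts in Control-sh against 69 for DDX24-sh1 and 74 for DDX24-sh2. Its ratios of -0.31 (interval -0.80 to 0.17) and -0.19 (interval -0.67 to 0.28) both held 0. The upper ends of these intervals lay below the 1.5-fold line of 0.58, and their lower ends lay below -0.58. Per length, IRF3 exceeded IRF7 by 14.0-fold in Control-sh, 16.98-fold in DDX24-sh1 and 14.1-fold in DDX24-sh2, with intervals that overlapped. These are RNA levels, and they hold nothing on the phosphorylation or location of either protein.

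FADD was higher in both knockdowns by less than 1.5-fold, and RIPK1 was at the edge of counting error. FADD (ENSG00000168040, chr11:70203163-70207390, plus strand), the adaptor that recruits caspase-8 to death receptors, had 425 counts in Control-sh against 631 for DDX24-sh1 and 581 for DDX24-sh2. Both shRNA libraries lay above the control, with ratios of 0.47 (interval 0.29 to 0.65) and 0.37 (interval 0.19 to 0.55), or 1.38-fold and 1.29-fold. An antisense gene, AP000879.1, covers 54.9% of the FADD exon bases and had 0 counts in every library. RIPK1 (ENSG00000137275, chr6:3063991-3115187, plus strand), a kinase that sits at the branch between NF-kB and cell death, had 462 counts in Control-sh against 561 for DDX24-sh1 and 523 for DDX24-sh2. Its ratio of 0.18 in DDX24-sh1 had an interval from 3.52e-05 to 0.36, which touches 0, and its ratio of 0.10 (interval -0.09 to 0.28) in DDX24-sh2 held 0. An antisense gene, AL031963.3, shares 238 exon bases with RIPK1 and had 1, 6 and 7 counts, and their part in the RIPK1 values was not tested. Per length, RIPK1 stood at 0.47 of FADD (interval 0.41 to 0.54) in the control, 0.39 (interval 0.34 to 0.43) for DDX24-sh1 and 0.39 (interval 0.35 to 0.44) for DDX24-sh2. Both shRNA intervals overlapped that of the control. Overlapping intervals do not show that the quotient was the same, and its change was not tested.

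**Figure D2:**
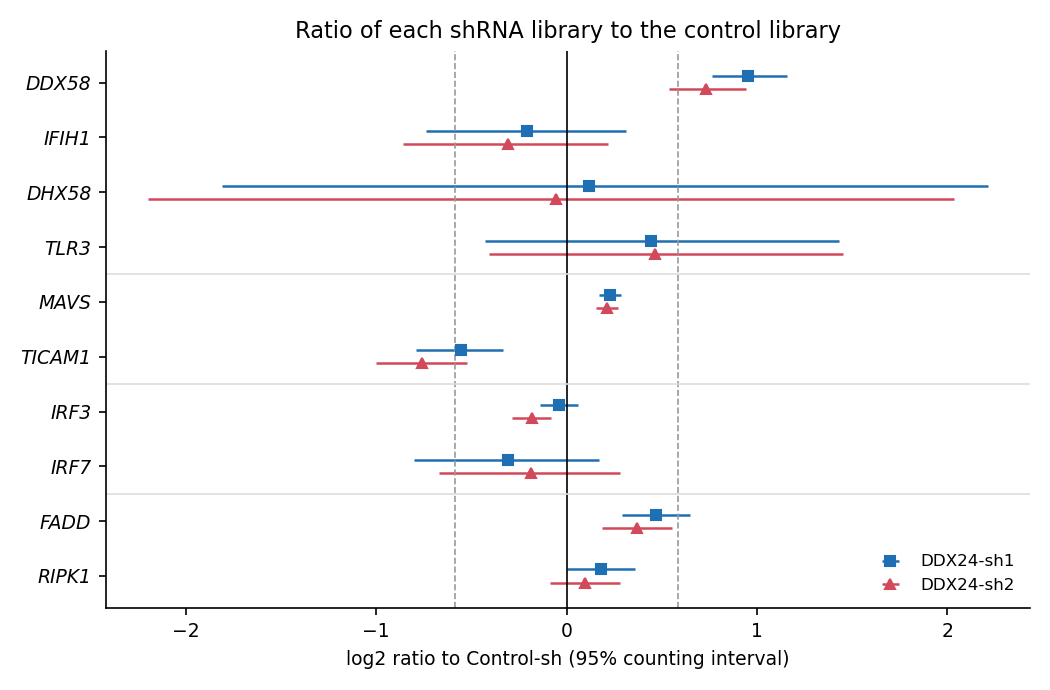
Log2 ratio to Control-sh of the 10 genes in DDX24-sh1 and DDX24-sh2, with exact 95% counting intervals as bars and lines at a 1.5-fold difference in either direction. DDX58 lay above the upper line in both libraries, at 0.96 and 0.73, and TICAM1 lay at -0.56 and -0.76, below the lower line in DDX24-sh2 alone.

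Of the 10 genes, 9 had a mean of at least 1 CPM. Of these 9, 5 were above the control in both knockdowns, namely DDX58, MAVS, TLR3, RIPK1 and FADD, 4 were below it in both, namely IFIH1, IRF3, IRF7 and TICAM1, and 0 went in opposite directions. The shared control ties these directions together, and over all genes 4832 were above and 5618 below in both out of 13984. The intervals lay beyond 0 in both knockdowns for 4 members, with DDX58, MAVS and FADD higher, against 14% of the 13984 genes with both intervals above 0, and TICAM1 lower, against 20.6% with both below 0. Differences of at least 1.5-fold were fewer. Only DDX58 was at least 1.5-fold higher in DDX24-sh1, where 7.59% of the 13984 genes past the same limit of 1 CPM were, and 0 members were at least 1.5-fold lower, against 8.25%. In DDX24-sh2, DDX58 was again the 1 member at least 1.5-fold higher, against 8.6% of genes, and TICAM1 the 1 member at least 1.5-fold lower, against 9.51%. DDX58 was the 1 member at least 1.5-fold higher in both, against 4.23% of genes, and 0 members were at least 1.5-fold lower in both, against 4.72%. One of 9 is a share of the order of these backgrounds, and the counts are no result about the 10 genes as a group. The 9 ratios had a median of 0.18 for DDX24-sh1 and 0.10 for DDX24-sh2, beside -0.02 and -0.03 over all genes.

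**Figure D3:**
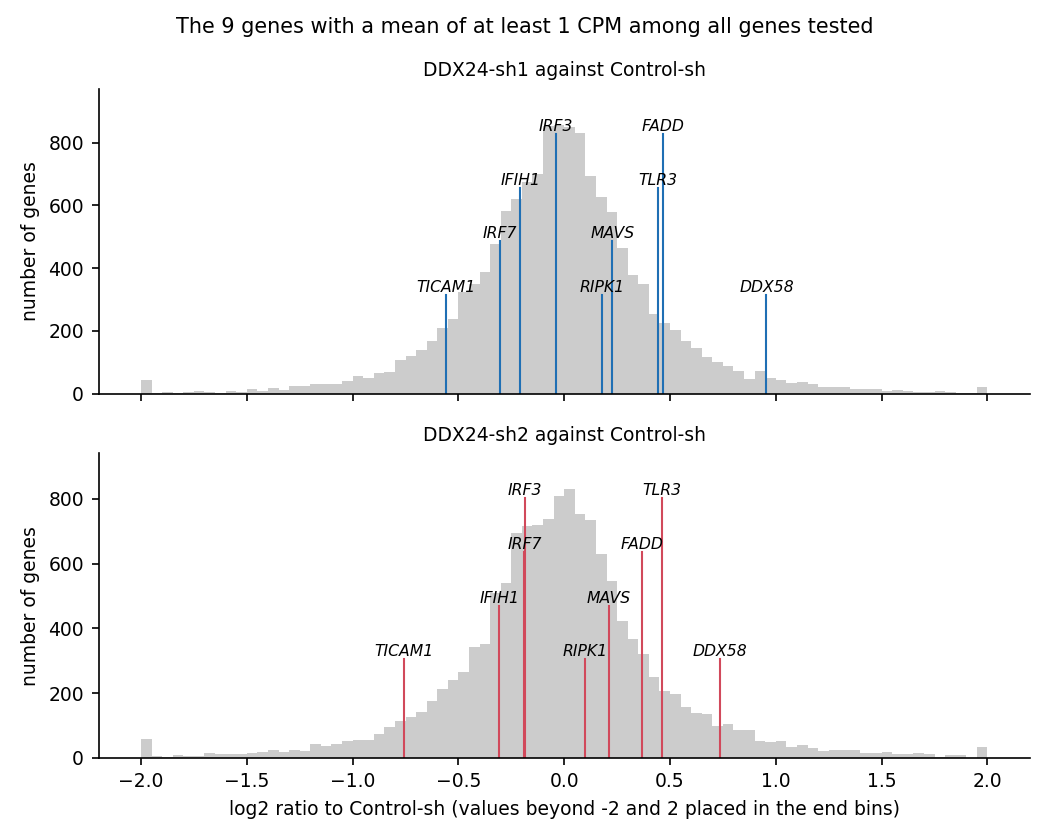
Number of genes by log2 ratio to Control-sh, in DDX24-sh1 (upper panel) and DDX24-sh2 (lower panel), for the 13984 genes whose mean reached 1 CPM. The members past this limit are marked and named, and extreme ratios were placed in the end bins. The ratios in both panels share the Control-sh library, and among the members shown DDX58 lay highest and TICAM1 lowest in each.

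Placed among all 13984 genes, 97.3% had a lower ratio than DDX58 in DDX24-sh1 and 94.2% in DDX24-sh2. For TICAM1 the shares were 9.07% and 5.76%, so more than 9 in 10 genes had a higher ratio in each library. FADD and TLR3 lay in the upper part of the range, between 84.5% and 89.1%, and MAVS and RIPK1 between 64.1% and 76.4%. IFIH1, IRF3 and IRF7 lay in the lower part of the range or near its middle, between 21.7% and 47.8%.

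The order of the members by level changed in the middle of the range. In Control-sh the level in CPM per kb of exon ran from IRF3 (25.03) over MAVS (21.9), FADD (13.5), TICAM1 (8.25), RIPK1 (6.40), DDX58 (4.28), IRF7 (1.78), IFIH1 (0.757) and TLR3 (0.157) to DHX58 (0.0762). All neighbours in this order differed beyond counting error except TLR3 and DHX58, whose quotient of 2.06 had an interval of 0.74 to 7.09. In both knockdowns DDX58 stood in position 4 and TICAM1 in position 6, where the control had TICAM1 in position 4 and DDX58 in position 6. DDX58 exceeded RIPK1, its next neighbour, by 1.15-fold (interval 1.02 to 1.29) in DDX24-sh1, but in DDX24-sh2 the 2 genes were not distinguishable, at 1.04-fold (interval 0.92 to 1.18). RIPK1 in turn exceeded TICAM1 in both, by 1.29-fold (interval 1.12 to 1.502) and 1.41-fold (interval 1.204 to 1.65). By this length MAVS and IRF3 also exchanged the top positions. In DDX24-sh1 these could not be distinguished, with MAVS at 1.05 times IRF3 (interval 0.996 to 1.11), and in DDX24-sh2 MAVS was 1.15-fold higher (interval 1.09 to 1.22). The exchange depends on the length used. IRF3 has 3794 exon bases over 31 transcripts, but its longest coding transcript has 1741 nt, by which IRF3 would stand above MAVS in every library. The intervals between neighbours hold no error in length. IRF3, MAVS and FADD thus held the top 3 positions in every library, and the sensors IFIH1, TLR3 and DHX58 the last 3.

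The partners of these proteins were read from 7 lists of 108 genes in all, of which 88 had a mean of at least 1 CPM. Of those 88, 2 were at least 1.5-fold higher in both knockdowns, against 4.23% of all 13984 genes. Another 2 were at least 1.5-fold lower in both, against 4.72%. The medians of the 88, -0.02 and -0.03, equalled those of all genes at this rounding. In direction, 31 of the 88 were above and 39 below the control in both, beside 4832 and 5618 of the 13984 genes. The counts within single lists stand beside these shares and were not tested. The 10 cofactors and ubiquitin ligases that act on RIG-I and MDA5 held no 1.5-fold difference in both and had medians of -0.09 and -0.07. The best counted of them were G3BP1, a stress granule protein that binds RIG-I, with 4047, 4847 and 5656 counts (in the order Control-sh, DDX24-sh1, DDX24-sh2, kept from here on, with ratios 0.16 and 0.40), and the phosphatase subunit PPP1CA with 3625, 3703 and 3662 (ratios -0.07 and -0.07). TRIM25, a ubiquitin ligase for RIG-I and named once its value was known, had 2512, 1914 and 1959 counts and ratios of -0.49 (interval -0.58 to -0.41) and -0.44 (interval -0.52 to -0.35). TRIM25 thus lay below the control in both knockdowns, where DDX58 lay above, but the list as a whole was mixed. Of its 10 genes, 5 were lower in both, 3 were higher in both and 2 went in opposite directions. Among the 3 higher ones was ZC3HAV1, also named once its value was known, with 1168, 1649 and 1594 counts (ratios 0.40 and 0.37).

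The 15 adaptors and kinases between MAVS or TRIF and the transcription factors held no 1.5-fold difference in either library, with medians of -0.10 and -0.02. TRAF3, which links MAVS and TRIF to the IRF3 kinases, had 1957, 1708 and 1776 counts, with ratios of -0.30 (interval -0.39 to -0.20) and -0.22 (interval -0.31 to -0.13). TRAF2, an adaptor towards NF-kB, had 1514, 1518 and 1648 counts, with ratios of -0.10 and 0.04 whose intervals held 0. TBK1, the kinase of IRF3 and named once its value was known, had 968, 856 and 923 counts, with ratios of -0.28 (interval -0.41 to -0.14) and -0.15 (interval -0.28 to -0.02). TRAF3 and TBK1 were below the control in both knockdowns, by less than 1.5-fold.

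Of 19 proteins known to restrain these routes, 18 had a mean of at least 1 CPM, 5 of them above and 11 below the control in both knockdowns, with medians of -0.10 and -0.16. Over all 13984 genes, 4832 were above and 5618 below in both, and the split of these 18 was not tested. NLRC5, a NOD-like protein known to bind RIG-I and to drive MHC class I genes, was the 1 gene at least 1.5-fold higher in both, with 101, 212 and 227 counts and ratios of 0.96 (interval 0.62 to 1.33) and 1.07 (interval 0.74 to 1.44). TNFAIP3, the ubiquitin-editing enzyme A20 and itself a target of NF-kB, was the 1 gene at least 1.5-fold lower in both. It had 844, 574 and 416 counts, with ratios of -0.65 (interval -0.81 to -0.50) and -1.10 (interval -1.27 to -0.93), and the 2 knockdowns differed from each other.

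The death-domain partners of FADD and RIPK1 had medians of 0.18 and 0.07 over 16 of 18 genes, with 9 above and 4 below the control in both and 0 past 1.5-fold in both. This split, beside 4832 above and 5618 below of all 13984 genes, was not tested either. TNFRSF1A, the TNF receptor that recruits RIPK1, had 7528, 9003 and 8640 counts and ratios of 0.16 (interval 0.11 to 0.20) and 0.12 (interval 0.07 to 0.16). TNFRSF10B, a TRAIL receptor that recruits FADD, had 5478, 5637 and 5868 counts and ratios of -0.06 and 0.02. CASP8, the caspase that FADD recruits, and its inhibitor CFLAR were named after their values were seen. CASP8 had 758, 922 and 985 counts (ratios 0.18 and 0.30), and CFLAR had 1488, 2000 and 1857 counts (ratios 0.33 and 0.24). FADD, CASP8 and CFLAR thus lay above the control in both knockdowns, each by less than 1.5-fold and with intervals beyond 0. RIPK3, the partner of RIPK1 in necroptosis, was at 0 counts in all 3 libraries, where a count of 0 allows up to 3 counts, or 0.176 CPM in the control library.

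**Figure D4:**
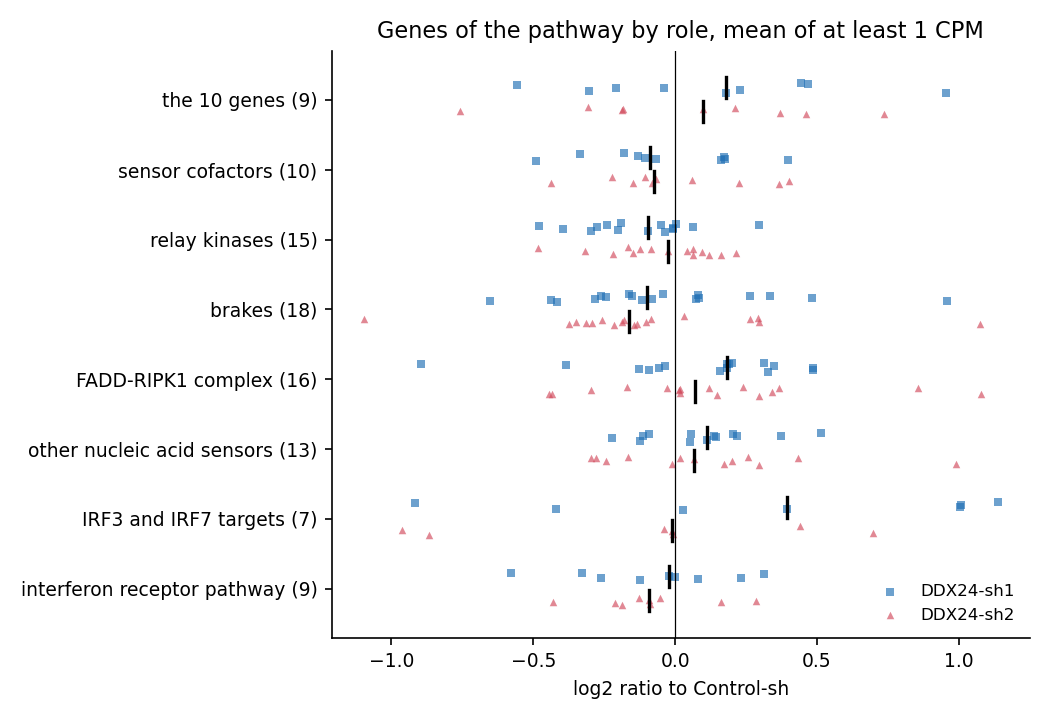
Log2 ratio to Control-sh of each gene with a mean of at least 1 CPM in the 10 genes and in 7 pathway lists, in DDX24-sh1 and DDX24-sh2, with 1 point a gene, a bar at each list's median and a line at no difference. The medians lay between -0.16 and 0.40, and the genes past 1.5-fold in both knockdowns were DDX58, NLRC5, IFIT1, TNFAIP3 and PMAIP1.

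The interferon genes downstream of IRF3 and IRF7 were hardly counted. IFNB1, IFNL1, IFNL2 and IFNL3 and the chemokine CXCL10 had 0 counts in every library, where a count of 0 allows up to 0.164 to 0.176 CPM, and IFNA1 had 2, 0 and 6 counts. Of the 15 genes on this list 7 had a mean of at least 1 CPM, with medians of 0.40 and -0.01. IFIT1, an RNA-binding protein induced through IRF3 and by interferon, had 78, 170 and 135 counts and ratios of 1.01 (interval 0.63 to 1.43) and 0.70 (interval 0.30 to 1.13). PMAIP1, which encodes the BH3-only protein NOXA and is also a target of p53 and ATF4, was lower in both, with 749, 424 and 433 counts and ratios of -0.92 (interval -1.10 to -0.75) and -0.87 (interval -1.05 to -0.70). This list thus held 1 gene past 1.5-fold in each direction. ISG15, a ubiquitin-like interferon-stimulated protein named once its value was known, had 140, 153 and 144 counts and ratios of 0.03 and -0.04 with intervals that held 0.

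The receptors and transducers through which interferon raises DDX58, IFIH1 and IRF7 had medians of -0.02 and -0.09 over 9 of 12 genes and 0 genes past 1.5-fold in both. JAK1, the kinase on the interferon receptors, had 7997, 6818 and 6271 counts and ratios of -0.33 (interval -0.38 to -0.28) and -0.43 (interval -0.48 to -0.38). JAK1 was thus 1 of 5 genes of this list below the control in both knockdowns, where 5618 of all 13984 genes were. On this list 1 gene was above the control in both, where 4832 of all genes were. The gene above was STAT2, named once its value was known, with 437, 582 and 563 counts. Its ratios were 0.31 (interval 0.13 to 0.50) and 0.28 (interval 0.10 to 0.47). Of 19 other sensors of RNA or DNA 13 had a mean of at least 1 CPM, with medians of 0.11 and 0.07 and 0 genes past 1.5-fold in both. DDX3X, a DEAD-box helicase that works with MAVS, had 11455, 11515 and 10786 counts (ratios -0.09 and -0.17), and ADAR, which edits double-stranded RNA, had 6314, 7479 and 6998 (ratios 0.14 and 0.07). TLR7, TLR8, TLR9, ZBP1 and AIM2 were at 0 counts in every library.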

How the data were processed

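RNA of A549 cells was sequenced in 3 libraries, 1 per condition. The authors deposited counts per gene, not normalized, and FPKM values, which divide counts by gene length and library size. The submitters' processing notes name Bowtie2 2.0.6, TopHat2 2.0.9, Cufflinks 2.1.1 and Cuffdiff 2.1.1, and the counter and its strand setting are not given in the sources used here. Genes follow GENCODE 29 on GRCh38. FPKM divided by count per length was constant within 1% over 11641 genes only with the shRNA labels exchanged.

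Ratios were computed from counts with edgeR 4.0.16 in R 4.3.3 (TMM, log2 CPM, prior count of 2). Intervals are exact conditional binomial (Clopper-Pearson) intervals, and as no molecular identifiers are stated, reads may repeat a molecule. The 1.5-fold calls and the intervals were tried on simulated counts that held counting error only and changes larger than those of the members. TMM scaling, the promoter search and the search for copies were not part of that trial. Copies were searched with BLAST 2.17.0, and figures drawn with matplotlib 3.10.9. Promoters came from RefSeq.

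Members and lists were chosen with earlier results of these data known. The genes named were all members, DDX24, and from each list the genes past 1.5-fold in both knockdowns or, failing any, the 2 best counted. Others are marked as named after their values were seen. A gene and a match that this rule or the motif search gave are not reported here. One list gene, MARCH5, had turned into a date in the deposited names and was found by its identifier.

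The alternatives were DESeq2 1.42.0 size factors, total counts alone, a prior count of 0.5, log2(FPKM + 0.1), other filters on low counts, protein-coding genes only and a 2-fold threshold. Each condition has 1 library, so no replicate could be left out.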

Additional observations from a re-analysis of the deposited data

How the results depend on the processing

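With DESeq2 size factors, total counts alone, a prior count of 0.5 or the FPKM with exchanged labels, all 20 ratios of the 10 genes moved by less than their counting intervals, and DDX58 kept to 0.96 to 0.97 in one knockdown (DDX24-sh1) and 0.73 to 0.76 in the other. The median of all genes lay between -0.03 and 0.0029 over these settings. With the FPKM labels as deposited, the 2 knockdowns changed places by construction: DDX58 was 0.73 and 0.96, IRF3 -0.17 and -0.026, and TICAM1 was the 1 member at least 1.5-fold lower in DDX24-sh1, with 0 in DDX24-sh2. At a 2-fold threshold 0 members were higher in DDX24-sh1, 0 in DDX24-sh2 and 0 in both, and 0 were lower in DDX24-sh2. Over all genes, 167 were then higher and 193 lower in both. Without a filter these numbers were 1919 and 2613, and above a mean of 10 CPM they were 160 and 371, because other genes were counted. The relay kinase median in DDX24-sh2 was 0.0052 and that of the IRF3 and IRF7 targets 0.0141 with total counts alone, against -0.02 and -0.01. At 10 CPM only PMAIP1 was left of those targets, at -0.92 and -0.87. The ratio of TICAM1 in DDX24-sh1, -0.54 to -0.56 over the settings, stayed just inside the 1.5-fold line of -0.58. Depth limited IFIH1, IRF7, TLR3 and DHX58, whose intervals held 0. No paired analysis was possible because each condition has 1 library.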

Other observations

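On the 7 lists of partners, 7 of the 88 genes with a mean of 1 CPM or more lay past 1.5-fold in 1 knockdown and not in the other. They were picked out with their values known. Over all 13984 genes, 7.59% were at least 1.5-fold higher and 8.25% lower in DDX24-sh1, and 8.6% and 9.51% in DDX24-sh2. In both knockdowns the shares were 4.23% and 4.72%. Differences of this size were thus common among all genes. How many of all genes passed 1.5-fold in 1 knockdown alone was not counted, and the 7 of 88 are no result about these lists. FAS, a death receptor that recruits FADD, had 266 counts in Control-sh against 400 for DDX24-sh1 and 596 for DDX24-sh2. Its ratios were 0.49 (interval 0.26 to 0.72) and 1.078 (interval 0.87 to 1.30), and DDX24-sh2 exceeded DDX24-sh1 by a log2 ratio of 0.59 (interval 0.41 to 0.78). MLKL, the protein that breaks the membrane in necroptosis, had 281, 384 and 540 counts with ratios of 0.35 and 0.86, and the nucleic acid sensor IFI16 had 147, 226 and 311 counts with ratios of 0.52 and 0.99. These 3 genes were highest in DDX24-sh2, whereas DDX58 was highest in DDX24-sh1.

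BIRC3, a ubiquitin ligase that modifies RIPK1, had 2096, 1207 and 1806 counts, with ratios of -0.89 (interval -0.999 to -0.79) and -0.29 (interval -0.39 to -0.20). Among targets of interferon and IRF3, IFIT3 had 93, 202 and 134 counts (ratios 1.004 and 0.44) and OASL had 21, 52 and 22 counts (ratios 1.14 and -0.01). Both were lower in DDX24-sh2 than in DDX24-sh1 beyond counting error, with intervals of -0.90 to -0.25 and -2.01 to -0.48. ISG20, an interferon-stimulated exonuclease, lay on the other side of the control, with 164, 131 and 88 counts and ratios of -0.42 (interval -0.77 to -0.08) and -0.96 (interval -1.37 to -0.60). SARM1, an inhibitor of TRIF past 1.5-fold in neither knockdown and also chosen after its values were seen, was above the control in DDX24-sh1 and below it in DDX24-sh2, with 221, 332 and 183 counts and ratios of 0.48 (interval 0.24 to 0.74) and -0.35 (interval -0.64 to -0.06). Differences between the knockdowns rest on 1 library each, and their variation between cultures was not tested.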
